A study of Mus musculus with 2 samples.

Results

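Expression of 10 genes used as markers of alternatively activated and scavenging macrophages was followed by cell type in mouse MC38 tumours. The 10 genes were Retnla, Chil3, Mrc1, Mgl2, Clec10a, Folr2, Stab1, Cd163, Msr1 and Marco, chosen by symbol, and all 10 were found among the 55357 genes listed in the files. They had been chosen with earlier results of the same data in view, so their levels and ratios are descriptions. MC38 is a mouse colon carcinoma line. The 2 libraries were 10x Genomics 3-prime single-cell libraries of sorted CD45+ 7-AAD- cells (living leukocytes), 1 from tumours of SPP1fl/fl mice, the floxed controls, and 1 from tumours of SPP1fl/fl-Lyz2-icre mice. Both groups carried the floxed Spp1 allele, which encodes osteopontin, and the second also carried Lyz2-icre, an allele that places the recombinase under the lysozyme promoter of macrophages, monocytes and neutrophils. The series asked what osteopontin made by macrophages does in such tumours. The floxed exons and the number and age of the mice behind each library were not stated, and the tumours were transplantable-line tumours without a stated time of growth. With 1 library per genotype no difference between genotypes could be tested. The intervals given are 95% and cover the counting of molecules or cells only, not the spread between mice.

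Macrophages exposed to interleukin 4 or interleukin 13 signal through the shared receptor chain Il4ra to the transcription factor Stat6, and in mice this switches on the secreted proteins Retnla and Chil3 and the lectins Mrc1, Mgl2 and Clec10a. Folr2, Stab1 and Cd163 are better known from long-lived perivascular and tissue-resident macrophages, where glucocorticoids and interleukin 10 sustain several of them. Msr1 and Marco are class A scavenger receptors that take up modified lipoproteins, bacteria and debris. In tumours these genes are widely used to mark macrophages called M2-like, although they need not be expressed by the same cells.

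The sequences just upstream of Retnla and Chil3 are shown because both encode secreted proteins of the alternative activation programme, while in macrophages Retnla had the widest gap between the libraries and Chil3 nearly none. They come from RefSeq (GRCm38.p6), which held promoter entries for 8 of the 10 genes, and are written 5-prime to 3-prime on the strand of the gene. Retnla lies on the plus strand and its stretch is chr16:48842359-48842550, which ends at the base before the GENCODE start of the gene. Chil3 lies on the minus strand and its stretch is chr3:106167565-106167814. Capitals mark matches to 3 motifs searched on both strands. The first is TTC and GAA held apart by any 4 bases, the spacing preferred by Stat6. The second is TTC and GAA held apart by any 3 bases, a spacing common among Stat proteins. The third is TTGCNNAA, a form bound by C/EBP factors.
Retnla: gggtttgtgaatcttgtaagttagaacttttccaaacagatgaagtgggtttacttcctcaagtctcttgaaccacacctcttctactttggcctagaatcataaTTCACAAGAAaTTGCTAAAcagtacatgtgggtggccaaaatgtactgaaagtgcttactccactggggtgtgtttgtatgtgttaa
Chil3: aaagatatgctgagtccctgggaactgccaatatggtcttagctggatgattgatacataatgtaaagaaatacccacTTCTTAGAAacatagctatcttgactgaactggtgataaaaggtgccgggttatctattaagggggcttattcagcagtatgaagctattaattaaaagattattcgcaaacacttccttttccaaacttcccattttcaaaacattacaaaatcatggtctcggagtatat
The Retnla stretch held TTCACAAGAA, which begins 145 bases before the RefSeq start, and TTGCTAAA, which begins 134 bases before it. The Chil3 stretch held TTCTTAGAA, which begins 172 bases before the start, and no match to the other 2 motifs. No match to any of the 3 motifs was found in the 250 bases upstream of Mrc1, Mgl2, Folr2, Stab1, Cd163 or Marco. Among 32851 mouse promoter windows of that length, 5.85% held the motif with 4 bases between, 7.02% the motif with 3 bases between and 9.56% TTGCNNAA. A match describes letters only, and binding was not measured. Whether these motifs have a part in the values of the 2 libraries was not tested.

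After removal of cells with few genes or many mitochondrial molecules, 8724 control and 13915 Lyz2-icre cells remained, with medians of 9379.5 and 6374 UMIs (unique molecular identifiers, each standing for 1 captured RNA molecule). The libraries shared 43 barcodes. Cells were assigned to groups, called gates, by the summed UMIs of marker lists that hold none of the 10 genes. Some cells past 2 thresholds were set aside (508 and 948 cells), such as those past the thresholds of macrophages and of T cells or neutrophils. A cell past the thresholds of macrophages and of monocytes or type 2 conventional dendritic cells stayed in the macrophage gate. A cell past the latter 2 only went to the one with the higher score relative to its threshold. The macrophage gate, set by C1q, Adgre1 and other macrophage markers, held 5957 and 10443 cells, whose median depth was 10045 and 6863 UMIs. The monocyte gate held 223 and 381 cells, the type 2 conventional dendritic cell (cDC2) gate 244 and 303, the cDC1 gate 55 and 66 and the migratory dendritic cell gate 158 and 118. Levels are given in CPM, the usual depth-scaled unit, from a gene's UMIs divided by all UMIs counted in that gate and library. As a check of the labels, Spp1 stood at 702 CPM in the control macrophage gate against 5.26 CPM in that of Lyz2-icre mice, and Lyz2 itself at 11528 and 4044 CPM. The cDC2 gate also held macrophage RNA, with 22.2 and 11.8 CPM of the dendritic cell gene Flt3 and 363 and 359 CPM of C1qa. Cells with Xist and cells with Y-linked transcripts were present in both libraries, so mice of both sexes had been pooled.

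**Figure D1:**
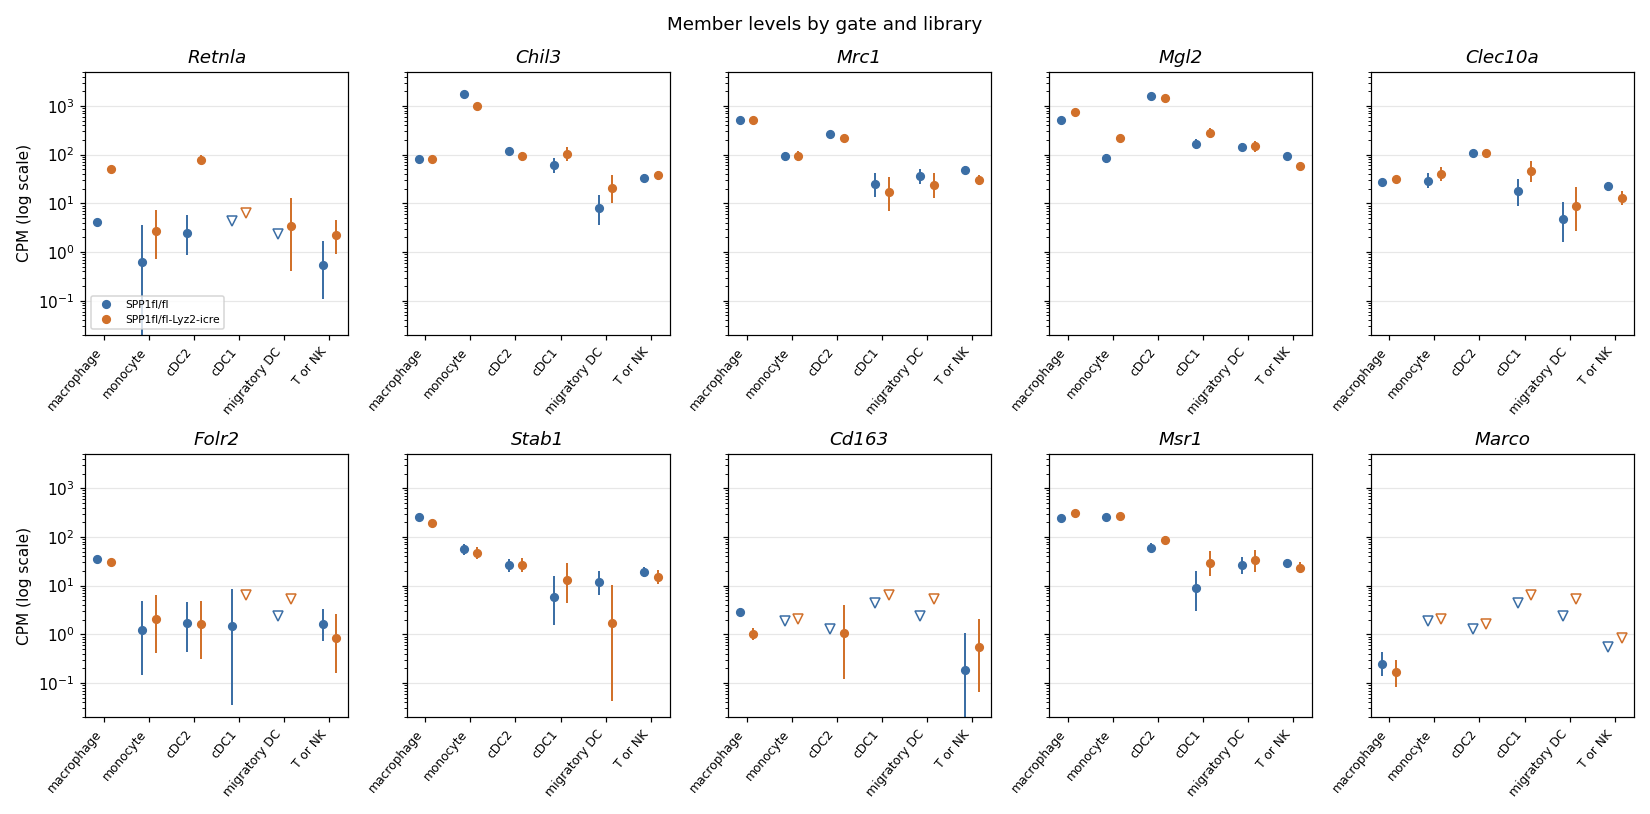
Levels of the 10 genes (CPM, log scale) in 5 phagocyte gates and in T or NK cells, control in blue and Lyz2-icre in orange, with bars for 95% counting intervals and open triangles for the limit that 0 counts allow. Retnla in the macrophage gate stands at 4.09 CPM in control and 50.01 CPM in the Lyz2-icre library, while Mrc1 stands at 510 and 517 CPM.

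Retnla, which encodes the secreted cysteine-rich protein RELMalpha (Fizz1), was the member with the widest gap between the libraries in macrophages. The control macrophage gate held 260 Retnla UMIs in 63 cells (4.09 CPM, 3.61 to 4.62), and the Lyz2-icre gate held 3899 UMIs in 500 cells (50.01 CPM, 48.5 to 51.6). The Lyz2-icre level was 12.2-fold higher (10.8 to 13.9), or 2.60 on the log2 scale with 5 CPM added to both libraries. Every log2 ratio below, and the limit of 1.5-fold, is on that scale, which understates the ratio of low genes. In female cells the ratio was 14.0 (12.1 to 16.3), and in male cells 2.22 (1.53 to 3.29, log2 0.51), short of the 1.5-fold limit on that scale. Of the 8 members that reached 10 CPM in the macrophage gate, Retnla was the only member at least 1.5-fold higher and none was 1.5-fold lower. Over all 7903 genes that reached 10 CPM there, 0.354% were at least 1.5-fold higher and 0.936% at least 1.5-fold lower, and the median log2 ratio was -0.02, against 0.09 for the 8 members. Cd163 and Marco stayed under 10 CPM.

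Few macrophages carried Retnla in either library. With every cell drawn down to 2000 UMIs, 24 of 5608 control cells (0.428%, 0.274 to 0.636) and 268 of 9520 Lyz2-icre cells (2.82%, 2.49 to 3.17) held a Retnla UMI, against 1.06% and 4.79% at full depth. In T or NK cells, which should lack the gene and whose median depth was 4994.5 and 3130.5 UMIs, the thinned shares were 0.245% (0.0297 to 0.882) and 0.424% (0.0875 to 1.23). The control share of macrophages lay within the wide counting interval of the control T or NK share. By level the 2 differed, at 4.09 CPM in control macrophages against 0.552 CPM in control T or NK cells. In the Lyz2-icre library the levels were 50.01 and 2.22 CPM. The RNA was concentrated in a minority of cells. In the Lyz2-icre macrophage gate 86 cells held 10 to 49 UMIs and 10 cells held 50 or more, with 282 in the highest, and these 10 cells carried 27.2% of the Retnla UMIs. The control gate had 7 cells with 10 to 49 UMIs, none with more, and 35 in the highest. Leaving out the top 1% of cells in each library brought the log2 ratio from 2.60 to 1.92. As 1.06% of control cells held Retnla, this took out nearly every control cell with the gene. The value of 1.92 therefore depends on the 5 CPM added and does not show that the gap narrowed. Markers of granulocytes were read beside these values, and their part in the Retnla levels was not tested. The 7 neutrophil markers summed to 78.0 CPM in the control and 34.8 CPM in the Lyz2-icre macrophage gate. The neutrophil gates, of 168 and 54 cells, held 1 and 3 Retnla UMIs, or 1.87 and 49.5 CPM. The second level is close to that of Lyz2-icre macrophages but rests on 3 UMIs. In the macrophage gates the 6 mast cell and basophil markers summed to 2.45 and 0.616 CPM. The 5 eosinophil markers summed there to 1.45 and 1.12 CPM, with the eosinophil granule gene Epx at 0 in both.

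**Figure D2:**
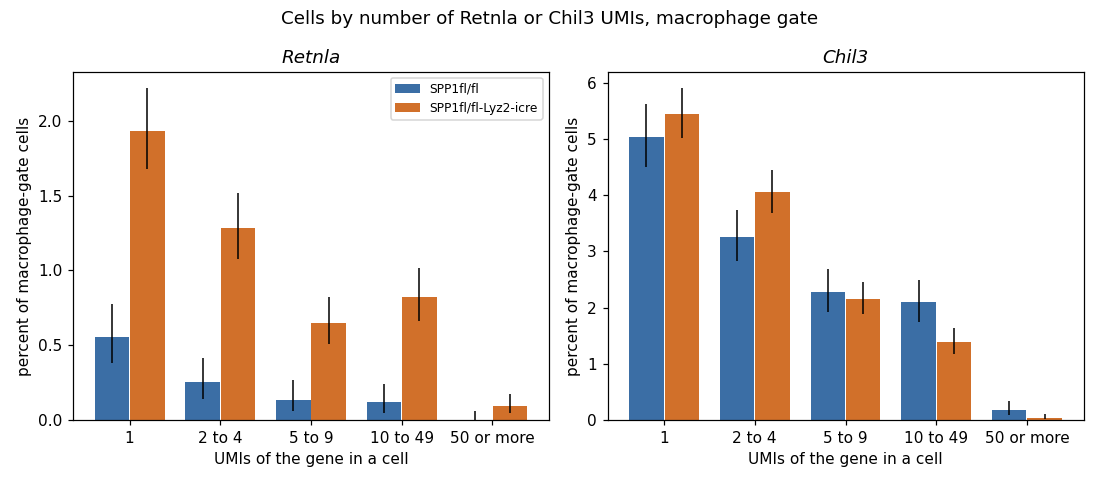
Percent of macrophage-gate cells by their number of Retnla (left) or Chil3 (right) UMIs, control in blue and Lyz2-icre in orange, with bars for 95% binomial intervals. For Retnla 0.118% of control and 0.824% of Lyz2-icre cells hold 10 to 49 UMIs, and for Chil3 the shares of that class are 2.10% and 1.39%.

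Among the other phagocyte gates Retnla was rare except in the Lyz2-icre cDC2 gate, and the order of gates could be read only in part. In the cDC2 gate the control library had 6 UMIs in 3 cells (2.52 CPM) and the Lyz2-icre library 148 UMIs in 14 cells (79.1 CPM). The Lyz2-icre cDC2 level was 1.58-fold that of Lyz2-icre macrophages (1.33 to 1.86), but 98 of the 148 UMIs lay in 1 cell. In that gate 7 members reached 10 CPM, of which Retnla was past 1.5-fold higher and none lower, against 2.66% and 3.58% of all genes there. The log2 ratio of 3.48 in the cDC2 gate became 0.40 when Leiden clusters took the place of gates. The monocyte gates held 1 and 4 UMIs and the migratory dendritic cell gates 0 and 2. The cDC1 gates held 0, which allows up to 4.38 CPM in control and 6.36 CPM in the Lyz2-icre library (3 counts). In control cells outside every gate, 166 of 171 Retnla UMIs lay in 1 cell.

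Chil3, the chitinase-like lectin Ym1 that forms crystals in inflamed airways, was highest in monocytes in both libraries. The macrophage gates held 5203 and 6245 Chil3 UMIs, or 81.8 CPM (79.6 to 84.1) and 80.1 CPM (78.1 to 82.1). These levels gave a ratio of 0.979 (0.944 to 1.02), with 1 control cell holding 378 of the UMIs. Thinned shares of macrophages with Chil3 were 6.62% and 7.61%, and 12.9% and 13.1% without thinning. The monocyte gates stood at 1785 CPM (1720 to 1852) in control and 997 CPM (946 to 1049) in the Lyz2-icre library. The Lyz2-icre level in monocytes was thus 0.558 of the control level (0.524 to 0.595, log2 -0.84). In female cells the ratio was 0.349 (0.317 to 0.384, log2 -1.51), and in male cells 0.904 (0.776 to 1.05, log2 -0.15), short of the 1.5-fold limit. The log2 ratio was 0.012 with all gate thresholds halved and 0.0064 with Leiden clusters, so the lower level was not kept under either, and the cause was not tested. A cell with 350 UMIs stood apart in the control monocyte gate, and without the top 1% of cells the log2 ratio was -0.74. Neutrophil markers also differed in this gate, 330 CPM in control and 89.7 CPM in the Lyz2-icre library over 7 genes, with none and 2 of the 7 at 0, and their part in the Chil3 values was not tested. The neutrophil gates themselves held 79 and 0 Chil3 UMIs, from 168 and 54 cells. After thinning, 61.6% (54.7 to 68.2) of control and 47.9% (42.4 to 53.4) of Lyz2-icre monocyte-gate cells held a Chil3 UMI, against 1.59% and 1.98% of T or NK cells. Without thinning the monocyte shares were 69.1% and 53.0%, in cells whose median depth was 7000 and 3562 UMIs.

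In the monocyte gate 6 members reached 10 CPM, of which Mgl2 was past 1.5-fold higher and Chil3 past 1.5-fold lower. Of all 7840 genes in that gate 5.29% were past the higher limit and 4.53% past the lower. Monocytes carried Chil3 at over 10 times the macrophage level in both libraries, and the neighbouring gates cDC2 and cDC1 were at 117 and 61.3 CPM in control and 91.9 and 104 CPM in the Lyz2-icre library. In the Lyz2-icre library the counting intervals of the cDC1, cDC2 and macrophage levels did not separate neighbours in that order. A paralogue, Chil4, shares 17.8% of the 50-base runs at the 3-prime end of Chil3 transcripts, and it counted 1 and 2 UMIs in the macrophage gates.

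Mrc1 (CD206), the mannose receptor and a widely used surface marker of alternative activation, was at nearly the same level in the macrophages of both libraries. The gates held 32457 and 40302 Mrc1 UMIs, or 510 CPM (505 to 516) and 517 CPM (512 to 522), with a ratio of 1.01 (0.998 to 1.03). Thinned shares of cells with a UMI were 54.0% (52.7 to 55.3) and 54.8% (53.8 to 55.8), against 6.13% and 5.93% in T or NK cells; without thinning they were 86.5% and 81.0%. Levels in the cDC2 gate were 264 and 219 CPM, in monocytes 92.6 and 94.5 CPM, in migratory dendritic cells 36.1 and 24.3 CPM and in cDC1 24.8 and 17.0 CPM. The order macrophage, cDC2, monocyte was the same in both libraries, and the migratory and cDC1 levels did not separate beyond counting error.

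Mgl2 (CD301b) and Clec10a (Mgl1) are a pair of neighbouring lectin genes on chromosome 11 that bind galactose and N-acetylgalactosamine residues. Mgl2 stood at 518 CPM (513 to 524) in control and 737 CPM (731 to 743) in Lyz2-icre macrophages, a ratio of 1.42 (1.403 to 1.44, log2 0.50) that lay under the 1.5-fold limit. Thinned shares were 40.0% (38.7 to 41.3) and 56.8% (55.8 to 57.8), against 6.99% and 5.65% in T or NK cells, and the shares without thinning were 63.8% and 74.3%. In monocytes Mgl2 was 84.5 CPM in control, from 135 UMIs in 27 cells, and 221 CPM in the Lyz2-icre library, from 323 UMIs in 80 cells. This was 2.62-fold higher (2.13 to 3.22, log2 1.34), although 83.7% of the control UMIs lay in 10 cells. Thinned shares of monocytes with Mgl2 were 7.58% and 16.2%. Male cells alone gave a log2 ratio of 0.40 in that gate. The cDC2 gate had more Mgl2 than macrophages in both libraries, 1623 and 1459 CPM, with a ratio of 0.899 (0.856 to 0.944).

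Clec10a gave 27.7 CPM (26.4 to 29.0) and 31.5 CPM (30.3 to 32.8) in macrophages, a ratio of 1.14 (1.07 to 1.21). Its levels were 106 and 107 CPM in the cDC2 gate and 29.4 and 40.4 CPM in monocytes. Plasmacytoid dendritic cells, with 19 and 15 cells, held Clec10a at 374 CPM (271 to 504, 43 UMIs in 16 cells) and 166 CPM (66.6 to 342, 7 UMIs in 5 cells). Thinned shares of macrophages with a Clec10a UMI were 5.46% and 6.13%, against 1.84% and 0.989% of T or NK cells, and 21.2% and 18.2% without thinning. Of the 50-base runs at the 3-prime end of Clec10a transcripts 12.3% are also found in Mgl2, and 6.61% of those of Mgl2 in Clec10a, so reads of the pair that fall there cannot be told apart.

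Folr2, the folate receptor beta of resident and perivascular macrophages, was found almost wholly in the macrophage gate. It stood at 35.8 CPM (34.3 to 37.3) in control and 30.3 CPM (29.1 to 31.5) in Lyz2-icre macrophages, a ratio of 0.846 (0.798 to 0.897). The monocyte gates held 2 and 3 UMIs, the cDC2 gates 4 and 3, the cDC1 gates 1 and 0 and the migratory gates 0 and 0. Thinned shares in macrophages were 6.63% (5.996 to 7.32) and 5.26% (4.82 to 5.73), against 0.245% and 0.141% of T or NK cells, and 17.6% and 12.2% without thinning.

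Stab1 (stabilin 1) is a scavenger receptor that clears acetylated lipoprotein and the matrix protein SPARC. Its level was 260 CPM (256 to 264) in control and 196 CPM (193 to 200) in Lyz2-icre macrophages, the lowest ratio among the 8 members that reached 10 CPM, at 0.754 (0.738 to 0.771, log2 -0.40). In male cells the direction turned, with a ratio of 1.31 (1.24 to 1.38). Thinned shares were 33.3% (32.1 to 34.6) and 27.0% (26.1 to 27.9), against 3.80% and 1.55% in T or NK cells, and 67.9% and 54.6% without thinning. Monocytes held 56.3 and 46.6 CPM and cDC2 26.4 and 26.7 CPM.

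Cd163, the receptor for haptoglobin and haemoglobin complexes, was scarce. Macrophages held 185 UMIs in 111 control cells (2.91 CPM, 2.504 to 3.36) and 79 UMIs in 51 Lyz2-icre cells (1.01 CPM, 0.802 to 1.26), a ratio of 0.348 (0.264 to 0.456). The thinned shares were 0.374% and 0.168%, against 0 of 816 T or NK cells (3 counts allow up to 0.368%) and 0.141%. Without thinning they were 1.86% and 0.488%. Of the 21 control macrophages with a Cd163 UMI after thinning, 61.9% also held Folr2, against 6.43% of the cells without. Marco held 16 UMIs in 10 control and 13 UMIs in 7 Lyz2-icre macrophages (0.252 and 0.167 CPM), and 0 UMIs in monocytes and in the 4 dendritic cell gates of both libraries. Msr1 (CD204, scavenger receptor A) was abundant by contrast, at 249 CPM (245 to 253) and 306 CPM (302 to 310) in macrophages, a ratio of 1.23 (1.202 to 1.25). Monocytes held 252 and 268 CPM. In control the monocyte and macrophage levels did not separate (ratio 1.01, 0.914 to 1.12), and in the Lyz2-icre library the macrophage level was 1.14-fold higher (1.03 to 1.27). Thinned shares were 36.3% and 42.3% in macrophages against 3.92% and 2.54% in T or NK cells, and 75.0% and 72.9% without thinning.

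The cDC1 and migratory dendritic cell gates held few UMIs of most members. Mgl2 was the highest member in both, at 168 and 280 CPM in cDC1 and 146 and 148 CPM in migratory cells. In the cDC1 gate 6 members reached 10 CPM and 5 of them were past 1.5-fold higher, namely Chil3, Mgl2, Clec10a, Stab1 and Msr1, and none was past 1.5-fold lower, where 10.4% and 12.9% of all genes were past the same limits. These 5 rest on 4 to 132 UMIs per library, and each of them has a higher level in macrophages, monocytes or cDC2, and free RNA was not removed. In the migratory gate 5 members reached 10 CPM. Chil3 was past the higher limit with 10 and 12 UMIs and Stab1 past the lower limit with 15 and 1, against 8.25% and 9.29% of all genes.

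Ordering phagocytes by their macrophage marker score, from the monocyte gate (score under 50 UMIs per 10000) to macrophages at 400 or more, set the members apart by where they peaked. Chil3 stood at 1785 CPM in the control monocyte gate and then at 249, 134, 41.1, 31.2 and 9.55 CPM with increasing score. In the Lyz2-icre library it stood at 997 and then at 210, 85.3, 69.5, 46.2 and 55.0 CPM. Folr2 ran the opposite way, from 1.25 to 79.0 CPM and from 2.05 to 70.6 CPM. Stab1 went from 56.3 to 480 CPM and from 46.6 to 342 CPM, and Mrc1 from 92.6 to 682 CPM and from 94.5 to 723 CPM. These 3 genes were highest in the cells richest in C1q and the other macrophage markers. Mgl2 was highest at scores of 100 to 200, with 702 CPM (control) and 902 CPM (Lyz2-icre). At scores of 50 to 100 it stood at 678 and 892 CPM, and the counting intervals of these 2 ranges overlapped in each library. Mgl2 was higher in the Lyz2-icre library in each of the 6 score ranges. Stab1 was lower in the Lyz2-icre library in each of the 6, but the counting intervals of the 2 libraries overlapped in each range under a score of 200. Retnla was highest at 108 CPM in Lyz2-icre cells with scores of 50 to 100, against 5.87 CPM in control, and at scores of 400 or more it stood at 30.0 and 1.43 CPM. Clec10a stayed between 25.5 and 40.4 CPM and Msr1 between 217 and 336 CPM along the score.

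**Figure D3:**
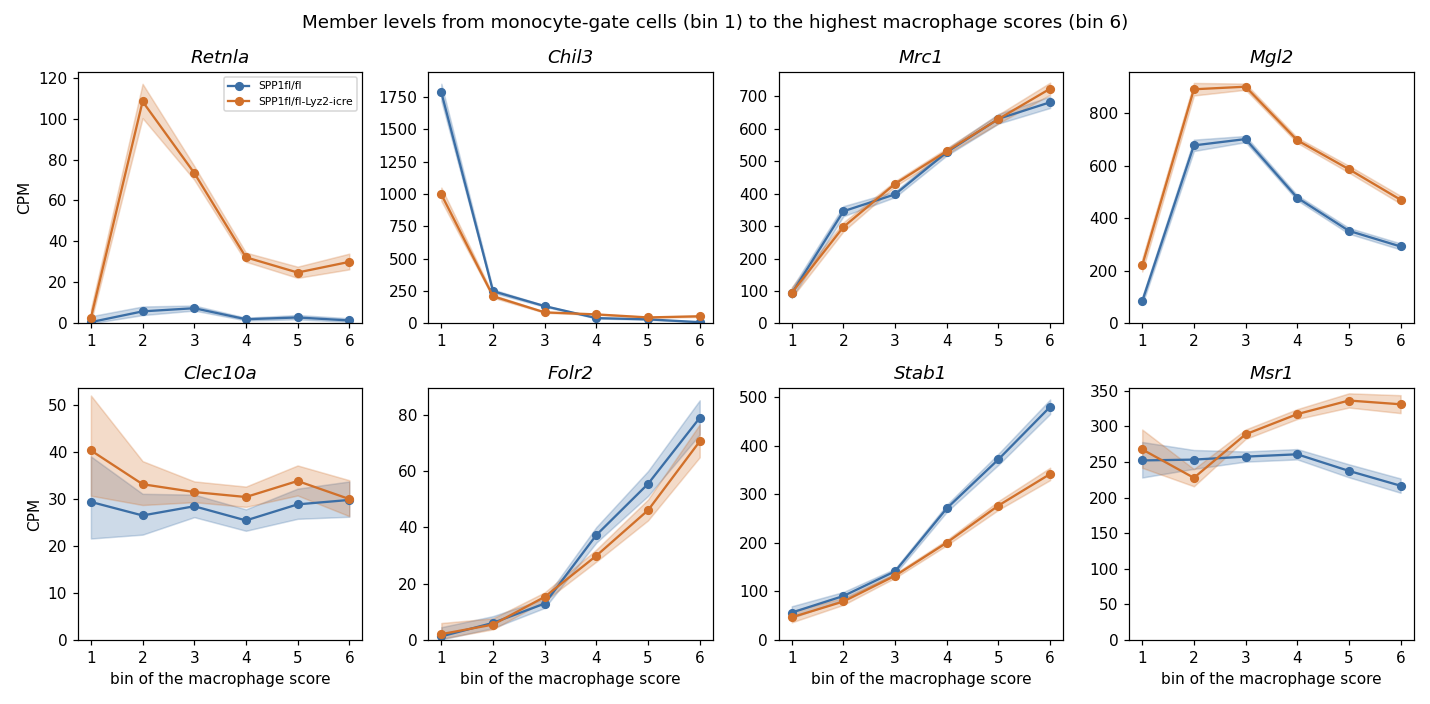
Levels (CPM) of 8 members in the monocyte gate (bin 1) and in macrophage-gate cells with scores of 50 to 100, 100 to 200, 200 to 300, 300 to 400 and 400 or more macrophage UMIs per 10000 (bins 2 to 6), control in blue and Lyz2-icre in orange, with shading for 95% counting intervals. Chil3 declines from 1785 to 9.55 CPM in control while Folr2 climbs from 1.25 to 79.0 CPM.

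Cells that carried 1 member differed in the others, as read after thinning to 2000 UMIs. Of the 268 Lyz2-icre macrophages with a Retnla UMI, 84.0% (79.0 to 88.1) also held Mgl2, against 56.0% (55.0 to 57.0) of the cells without, and 69.0% against 54.3% held Mrc1. The 24 control cells with Retnla showed Mgl2 in 66.7% (44.7 to 84.4) against 39.9%. Chil3-bearing macrophages held less Mgl2, 24.5% against 41.1% in control and 46.3% against 57.7% in the Lyz2-icre library, and fewer of them held Mrc1. Folr2-bearing cells were rich in Stab1, 66.4% (61.3 to 71.2) against 31.0% in control and 47.9% (43.5 to 52.4) against 25.8% in the Lyz2-icre library. They were poor in Mgl2, with 23.1% against 41.2% and 48.3% against 57.3%. These shares describe overlap within cells and were not tested between libraries.

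**Figure D4:**
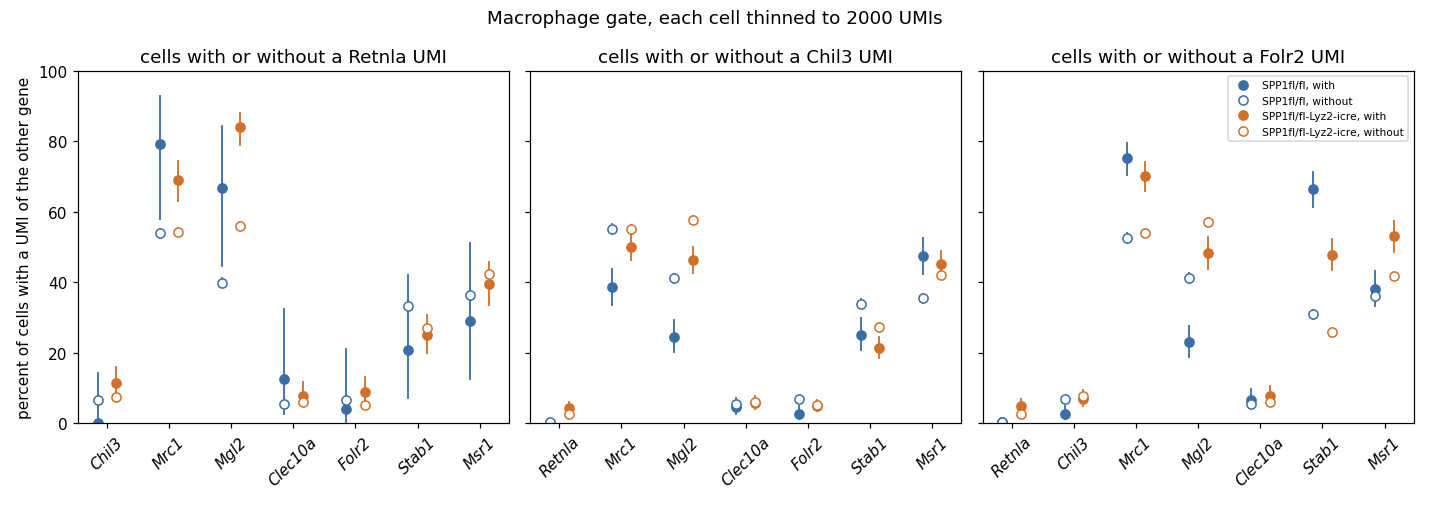
Percent of macrophage-gate cells, each thinned to 2000 UMIs, that hold a UMI of another member, for cells with (filled) or without (open) a Retnla, Chil3 or Folr2 UMI, control in blue and Lyz2-icre in orange, with 95% binomial bars. Retnla-bearing Lyz2-icre cells hold Mgl2 in 84.0% against 56.0%, and Folr2-bearing control cells hold Stab1 in 66.4% against 31.0%.

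The members were also read within macrophage states, each set by a thinned UMI of a state gene. Ccl8, a chemokine of resident-type macrophages, marked 13.2% of control and 23.3% of Lyz2-icre macrophages, and Folr2 was 3.05-fold and 4.46-fold higher in those cells than in the rest (87.3 against 28.6 CPM, and 75.3 against 16.9 CPM). Ly6c2, a monocyte gene still present in 3.73% and 5.66% of macrophages, marked cells with 12.0-fold and 6.09-fold more Chil3 (715 against 59.6 CPM, and 378 against 62.1 CPM). The few cells with a UMI of the perivascular marker Lyve1, 17 and 11, held Folr2 14.7-fold and 13.3-fold above the rest and Cd163 at 88.7 and 234 CPM, against 2.71 and 0.769 CPM. Retnla was higher in the Lyz2-icre library on both sides of every split by Arg1, Cxcl9, Ccl8, Il1b, Ly6c2 and the cycling genes Mki67 and Top2a, with log2 ratios from 2.03 (cells without Arg1) to 3.45 (cells with Ccl8). In the cells with Lyve1 Retnla stood at 6.33 and 876 CPM (log2 6.28), from 17 and 11 cells. The 209 control cells with Ly6c2 held no Retnla UMI, against 32.9 CPM in the 539 Lyz2-icre cells with it. In the Lyz2-icre library Retnla was 1.74-fold higher in cells with Arg1 and 2.19-fold higher in cells with Ccl8. In control the same ratios were 0.598 (0.449 to 0.789) and 0.799 (0.506 to 1.21). These intervals count molecules, and in the control macrophage gate 7 cells carried 48.5% of the Retnla UMIs. They therefore do not show that either control ratio differs from 1.

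Several of these values differed when the macrophage gate was split by sex of the cells. There were 3581 control and 5974 Lyz2-icre female cells, and 1395 and 1962 male cells, and each sex comes from other mice whose number was not stated. Retnla was 5.41 CPM in female control and 75.9 CPM in female Lyz2-icre cells, but 2.60 CPM (41 UMIs) and 5.79 CPM (94 UMIs) in male cells. The log2 ratios were 2.96 and 0.51. Mgl2 went from 495 to 834 CPM in female cells (log2 0.75) and from 571 to 593 CPM in male cells (log2 0.05). Stab1 stood at 326 and 195 CPM in female cells (log2 -0.73) but at 153 and 201 CPM in male cells (log2 0.38). Chil3 stood at 104 and 94.2 CPM in female cells and at 31.4 and 44.5 CPM in male cells (log2 -0.13 and 0.44). Among 8 members that reached 10 CPM in female cells 2 (Retnla and Mgl2) were past 1.5-fold higher and 1 (Stab1) past 1.5-fold lower, against 1.08% and 1.42% of all genes. Among 7 in male cells none was past either limit, against 0.988% and 1.6% of all genes. Retnla stayed under 10 CPM in male cells and was not among these 7. Thinned shares with Retnla were 0.414% and 3.96% in female cells and 0.514% and 0.898% in male cells. The gaps of Retnla, Mgl2 and Stab1 between the libraries were wider in female than in male cells, and that difference was not tested. Msr1 was higher in the Lyz2-icre library in both sexes, with ratios of 1.31 in female and 1.08 in male cells. Mrc1, Clec10a and Folr2 had log2 ratios of 1 sign in both sexes. The counting interval included 1 for Mrc1 in female cells and for Clec10a and Folr2 in male cells.

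**Figure D5:**
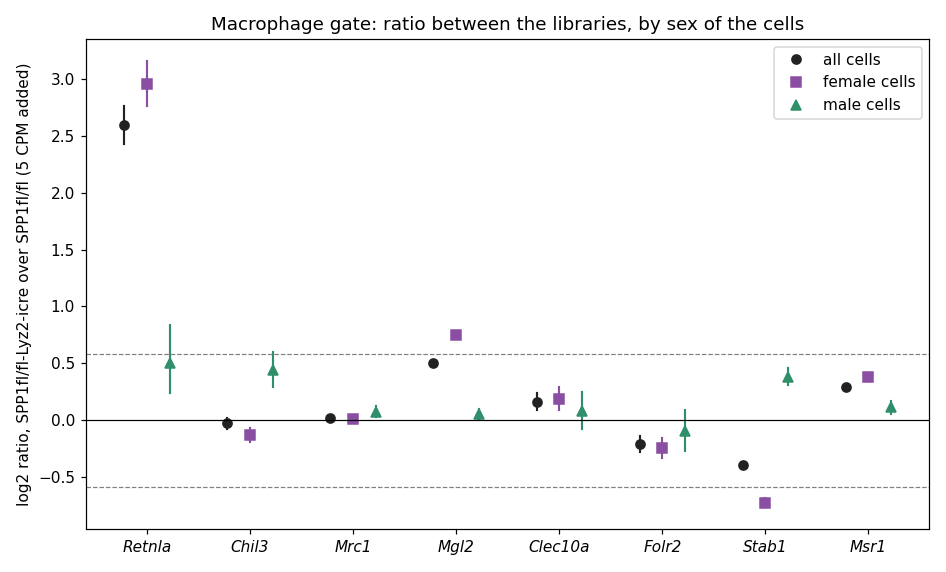
Log2 ratio of Lyz2-icre over control in the macrophage gate for 8 members, in all cells (black circles), female cells (purple squares) and male cells (green triangles), with bars for 95% counting intervals and dashed lines at 1.5-fold. Retnla lies at 2.96 in female and 0.51 in male cells, and Stab1 lies on opposite sides of 0.

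The other genes of the interleukin 4 and interleukin 13 axis were read from a list of 24, of which 19 reached 10 CPM in the macrophage gate. Of these 19, 5 were past 1.5-fold higher and 1 past 1.5-fold lower, against 0.354% and 0.936% of all genes in that gate. The median log2 ratio was 0.10 against -0.02 over all genes. The receptor and signalling genes differed by less than 1.5-fold, with Il4ra at 121 and 131 CPM (ratio 1.08), Il13ra1 at 52.5 and 53.6 CPM (1.02) and Stat6 at 65.0 and 62.9 CPM (0.967). The genes past the limit were the eosinophil-attracting chemokine Ccl24 (12.8 and 57.9 CPM, 4.53-fold, 4.20 to 4.89), Ccl8 (172 and 470 CPM, 2.72-fold), the PD-1 ligand Pdcd1lg2 (12.1 and 31.4 CPM, 2.59-fold), the arginine transporter Slc7a2 (121 and 246 CPM, 2.03-fold) and arginase, Arg1 (720 and 1120 CPM, 1.56-fold). The gene past the lower limit was Fcrls (245 and 145 CPM, 0.590, 0.576 to 0.605). Next lowest were the transcription factor Egr2 (144 and 112 CPM, 0.776) and the chemokine Ccl17 (97.3 and 81.5 CPM, 0.837). Under 10 CPM, Pparg (5.30 and 2.49 CPM), Ccl22 (9.86 and 5.53 CPM), Arg2 (6.32 and 3.85 CPM) and Il4i1 (2.44 and 1.85 CPM) were lower in the Lyz2-icre library. All were short of the 1.5-fold limit on the log2 scale used, and Chil4 held 1 and 2 UMIs. Ccl8 is also 1 of the resident-type genes read below. In male cells alone the median of the list was -0.18. Il4ra, Il13ra1, Stat6, Slc7a2, Arg1 and the genes under 10 CPM were named after their values were seen. The list was drawn up with earlier results of these data known.

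Cytokines that could drive this axis were scarce. None of 6 type 2 cytokines and alarmins reached 10 CPM in macrophages. Over all kept cells Il4 counted 45 UMIs in 26 control cells and 65 UMIs in 18 Lyz2-icre cells. Il13 counted 16 UMIs in 8 control cells and 408 UMIs in 17 Lyz2-icre cells, of which 262 lay in 1 cell, and 321 of the 408 were in 8 cells of the T or NK gate. Il5 counted 3 and 132 UMIs, with 128 in 1 Lyz2-icre cell. These counts rest on too few cells to compare the libraries.

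Other scavenger and endocytic receptors and 2 further lists were read against the same shares of all genes, 0.354% higher and 0.936% lower. Of 28 receptors listed, 18 reached 10 CPM, none was past 1.5-fold higher and 1 past 1.5-fold lower, with a median of -0.06. The lower gene was Clec4e, a receptor for mycobacterial glycolipid (128 and 80.3 CPM, 0.629), and the highest ratio was that of the lipid scavenger Cd36 (15.8 and 23.6 CPM, 1.49), ahead of Clec4n (333 and 418 CPM, 1.26) and Cd68 (405 and 483 CPM, 1.19). Clec4b1 stood at 31.2 and 21.8 CPM (0.700) and the efferocytosis receptor Mertk at 51.5 and 38.9 CPM (0.754). Of 15 genes of resident-type macrophages 11 reached 10 CPM, and Ccl8 alone was past the higher limit and none past the lower (median -0.11). Igf1 was 19.3 and 31.0 CPM (log2 0.56) and Pf4 651 and 702 CPM, while Wwp1 stood at 45.4 and 33.8 CPM, F13a1 at 205 and 158 CPM and Maf at 317 and 257 CPM. Of 8 genes of the interleukin 10, glucocorticoid and haem response, 7 were found and 5 reached 10 CPM, with Il10 at 38.9 and 23.9 CPM (0.615) past the lower limit, none past the higher, and a median of 0.01. The haem oxygenase gene Hmox1 stood at 104 and 138 CPM (1.32), Tsc22d3 at 97.3 and 109 CPM (1.12) and Il10ra at 114 and 95.2 CPM (0.834).

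Likeness of each member to other genes was read as the Pearson correlation of log2 levels (with 5 CPM added) over 16 points (8 gates in 2 libraries) for 9447 genes, a description in which the points share libraries and depth. Chil3 ran closest to the metalloproteinase gene Mmp19 (0.92), followed by Pstpip2 and Plcb1, and Mrc1 closest to Fcrls (0.93), then Mmp13 and Trem2. Mgl2 followed the lectin Clec4b1 (0.90), then Slamf9 and Mtss1, and Clec10a the integrin gene Itgax (0.92), then Pepd and Rbpj. Folr2 followed the complement gene C1qa (0.95), then Ms4a7 and Itga9, Stab1 followed Ntpcr (0.91), Apoe and Selenop, and Msr1 followed Slc7a8 (0.96), Cndp2 and C3ar1. C1qa, Ms4a7, Apoe and Trem2 are markers that set the macrophage gate, so a gene high in that gate runs with them by design. Retnla had the weakest nearest neighbour, Etv5 (0.73), ahead of Tnfsf13b and Abhd17c. Among the members themselves Mrc1 and Stab1 (0.84), Mgl2 and Clec10a (0.82) and Folr2 and Stab1 (0.81) ran together over the gates. Retnla and Chil3 did not (-0.25), but gate levels do not show whether the 2 genes were apart within cells. After thinning, 11.6% (7.996 to 16.0) of Lyz2-icre macrophages with Retnla held Chil3. In those without Retnla the share was 7.49% (6.96 to 8.05), and the intervals overlapped. In control 0 of 24 cells with Retnla held Chil3 (up to 14.2%), against 6.64% of those without.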

How the data were processed

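The deposited values were UMI counts made by the authors, not normalized, for the barcodes called as cells. Per the submitters' processing notes bcl2fastq 5.0.1 and Cell Ranger were used with mm10, and the file headers give Cell Ranger 8.0.1. The annotation release is not given in the sources used here. The members and gene lists were chosen with earlier results of these data known.

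Kept cells had a minimum of 300.0 genes and 500.0 UMIs and a mitochondrial share of no more than 15% (Python 3.11.15, scanpy 1.11.5, scipy 1.17.1). Gates used UMIs of marker lists per 10000, with thresholds of 10, 20, 50 or 100 that were set after the scores had been seen. No doublet caller was run. Some cells that passed 2 lineages were set aside, but passing the monocyte or cDC2 threshold took no cell out of the macrophage gate. UMIs were summed by gate and library into CPM. Counts had exact Poisson intervals, ratios exact conditional binomial intervals and shares exact binomial (Clopper-Pearson) intervals, all at 95%. For 0 counts the limit is what 3 counts would give. Shares were read at 2000 UMIs per cell, with 611 control cells and 1723 of the Lyz2-icre library too shallow for it. Sex was read from Xist and Y-linked UMIs, leaving cells with both or neither unassigned. Free RNA was not removed. Calculations were tested on simulated data. Depth was 88047097 and 98256831 UMIs.

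Named genes were all members, the 3 highest and 3 lowest of each list at 20 CPM or more, and the 3 genes nearest each member by correlation. Gene positions were matched to GENCODE vM21 (mm10): Retnla on chromosome 16 from 48842551 to 48844461, Chil3 on 3 from 106147554 to 106167564, Mrc1 on 2 from 14229392 to 14332057, Mgl2 on 11 from 70130329 to 70137550, Clec10a on 11 from 70156197 to 70170834, Folr2 on 7 from 101839988 to 101857194, Stab1 on 14 from 31139013 to 31168641, Cd163 on 6 from 124304656 to 124330527, Msr1 on 8 from 39581685 to 39642673 and Marco on 1 from 120474538 to 120505024.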

Additional observations from a re-analysis of the deposited data

Results flagged for a closer look

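In 2 members the libraries differed in opposite directions in female and male macrophage-gate cells. Chil3 had a log2 ratio of -0.13 in female and 0.44 in male cells. Stab1 had -0.73 in female and 0.38 in male cells. The difference between the sexes was not tested, because each library is 1 sample and the mice behind each sex were not stated.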

How the results depend on the processing

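The count of members at least 1.5-fold higher in Lyz2-icre macrophages was 1 and of those lower 0. With female cells only the counts were 2 higher and 1 lower. With male cells only they were 0 and 0, where Retnla stayed under 10 CPM and was not counted. Under the other settings they stayed at 1 and 0. Those settings were 2 other cell filters, gate thresholds doubled or halved, Leiden clusters, median-of-ratios scaling, mean per-cell CPM, 1 or 20 CPM added, thinning, the top 1% of cells left out, no filter on low genes and, added after the data were seen, shared barcodes left out. Retnla in macrophages ranged from 0.51 (male cells) to 3.33 (1 CPM added) and was past 1.5-fold in 13 of 14 settings. Chil3 in monocytes (-0.84) was 0.012 with thresholds halved and 0.0064 with Leiden clusters, and the cause was not tested. Median-of-ratios scaling moved all genes by 0.02. No paired analysis was possible because each genotype had 1 library, with no number to pair by. Marco and Cd163 are limited by depth.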

Other observations

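Genes that marked the macrophages with a Retnla UMI were looked up after their values had been seen, so they are descriptions. In the 268 Lyz2-icre cells with Retnla, Ccl24 stood at 356 CPM against 48.4 CPM in the cells without, and in the 24 control cells with Retnla at 125 against 13.8 CPM. The ribonuclease gene Ear2 stood at 241 against 36.3 CPM and 312 against 33.5 CPM, and the growth factor gene Igf1 at 97.0 against 32.0 CPM and 104 against 21.7 CPM. The transcription factor Irf4 was 42.9 against 11.1 CPM in the Lyz2-icre library. Macrophages with a Chil3 UMI were rich in monocyte genes, with Plac8 at 844 against 55.9 CPM in control and 625 against 53.9 CPM in the Lyz2-icre library, and Ly6c2 at 256 against 22.2 and 390 against 44.0 CPM. Macrophages with a Folr2 UMI were rich in Gas6 (187 against 33.7 and 136 against 23.9 CPM), Cbr2 (169 against 38.1 and 227 against 40.9 CPM) and the coagulation factor gene F13a1 (753 against 190 and 559 against 150 CPM). Ccl24 and Igf1 were not particular to cells with Retnla. In cells with Chil3, Ccl24 stood at 82.2 against 9.45 CPM in control and 172 against 47.6 CPM in the Lyz2-icre library. In cells with Folr2, Igf1 stood at 87.4 against 17.4 CPM and 121 against 29.0 CPM. Levels here are CPM of the thinned cells, so the 24 control cells with Retnla rest on few UMIs of each gene.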
